A study of Homo sapiens with 22 samples.

Results

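The RNA levels of 7 genes were followed through 22 libraries of MDA-MB-231, a line of mesenchymal, triple-negative breast cancer cells. The genes were NGFR, VIPR1, SLCO4A1, CCN3, KISS1, VAMP3 and MPZL1, which code for receptors, a transporter, secreted proteins and membrane proteins. They were picked by name out of the 60669 genes of the METTL3 knockdown table for large differences there. NGFR, VIPR1, SLCO4A1, CCN3 and VAMP3 were picked on shM3 against B5, KISS1 on shM3_CD against shM3, and MPZL1 on shM3_WT against shM3_CD, so those differences are described below with no test. Each gene had 1 row in each of 3 deposited tables, and all 7 passed the filter on low values in every table.

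The first table holds cells kept for 2 to 3 months and labelled B5, shM3, shM3 with METTL3-WT added back (shM3_WT), or shM3 with METTL3-CD added back (shM3_CD). The labels expand neither B5 nor CD, and name no clone. The second holds cells given DMSO, or JQ1, MOLIB (Molib) or I-BET151 at 0.5 µM, for 3 days. The third holds cells labelled CTRL, JQ1 and MW_JQ1, where both JQ1 groups had 0.5 µM JQ1 for 3 days and MW is not explained. All 11 groups have a genotype of WT and 2 libraries each. JQ1 and I-BET151 are inhibitors of BET bromodomain proteins, which read acetylated histones at active genes. Nothing says that the paired libraries came from separate cultures, so p-values measure the spread between these libraries, which may be technical. Levels are in FPKM, fragments scaled to gene length and library total, and differences are tested on log2(FPKM + 1), a scale that understates the change of low genes.

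METTL3 is the catalytic subunit of the complex that writes N6-methyladenosine (m6A) on RNA, a mark placed mostly near stop codons and in 3′ untranslated regions at a short motif of which GGACT is a common form. Reader proteins that bind m6A change the decay, splicing or translation of the marked RNA. BET proteins act one step earlier, at transcription. The design text gives the aim as finding targets governed by BET inhibition and m6A, and no m6A was measured in these tables.

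Library totals ran from 426106 to 469180 FPKM in 21 libraries. B5 replicate 2 had a single listing of 8234200 FPKM for PIDD1, and 423171 over its remaining genes. FPKM gives no read counts, so the depth behind a value is unknown. METTL3 was at 20.1 and 23.8 FPKM in the B5 libraries and at 4.39 and 4.80 in the shM3 libraries. It was at 312 and 311 in the shM3_WT libraries and at 277 and 270 in the shM3_CD libraries, with means 14.2-fold and 12.5-fold over B5. The add-backs are thus not at the B5 level of METTL3 RNA. The knockdown and both add-backs thus show in the targeted RNA, although METTL3 shares 388 exonic bases with TOX4 on the other strand and the use of strand in counting is not given in the sources used here. All 6 mesenchymal markers were at 1 FPKM or more in every library, with sums from 1100 to 2083 FPKM. In the B5 and DMSO tables the 6 luminal markers summed to 2.87 to 18.5 FPKM, and the 6 markers of neural crest and Schwann cells, where NGFR is a classic surface marker, to 1.89 to 5.29. The CTRL table lists only 2 and 1 of these markers.

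By the GENCODE v29 annotation of hg38, the build of the tables, NGFR lies on chr17:49495293-49515017, VIPR1 on chr3:42489299-42537573 and SLCO4A1 on chr20:62642445-62685785, all on the plus strand. VAMP3 lies on chr1:7771269-7781432 and MPZL1 on chr1:167721192-167791919, also on the plus strand, and KISS1 on chr1:204190341-204196486 on the minus strand. SLCO4A1-AS1, on chr20:62663019-62666724, is an antisense gene inside SLCO4A1 with which it shares 346 exonic bases. VIPR1-AS1 shares 844 exonic bases with VIPR1 but never rose above 2.97 FPKM. NGFR shares 924 exonic bases with AC015656.1 and 202 with AC006487.1, which reached at most 0.197 and 3.57 FPKM. Without stated use of strand, reads of such partners cannot be told apart.

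Since METTL3 methylates RNA at motifs such as GGACT, that motif was searched on the sense strand of the longest protein-coding GENCODE transcript of each gene. NGFR held 5 matches, or 1.46 per kb, and VIPR1 held 6, or 1.90 per kb, all in the 3′ untranslated region, above the density of 77.1% and 88.6% of 19684 genes. The median gene had 0.927 per kb. SLCO4A1, CCN3, KISS1, VAMP3 and MPZL1 held 1 match each, in the coding part of SLCO4A1, the 5′ untranslated region of KISS1 and the 3′ untranslated region of the other 3. The short KISS1 transcript had 1.41 per kb, above 75.1% of genes. Densities under the median were found for SLCO4A1 (0.36 per kb), CCN3 (0.40), VAMP3 (0.45) and MPZL1 (0.20). These were above only 15.8%, 17.2%, 20.1% and 11.8% of genes. The match nearest to the end of the coding part is shown for 4 of the genes, with the motif in capitals. The VIPR1 motif is at chr3:42536909-42536913, the VAMP3 motif at chr1:7780604-7780608, the MPZL1 motif at chr1:167787966-167787970, 48 bases past the stop codon, and the KISS1 motif at chr1:204196384-204196388. A match is no methylated site, and these matches are given as a description.
VIPR1: ccaccgaagtGGACTggcccctggg
VAMP3: tatcagctgtGGACTccagcatgtt
MPZL1: aaaccaaactGGACTctcgtgcaga
KISS1: gcccaggccaGGACTgaggcaagcc

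RefSeq windows of 200 bases, from 250 to 51 bases before the start site (GRCh38.p14), are shown for VAMP3, KISS1 and VIPR1, since BET proteins act at such starts. The MPZL1 window, with 68 bases in an annotated exon, is not printed, and windows of NGFR, SLCO4A1 and CCN3 were not used here. VAMP3 (chr1:7771046-7771245) and KISS1 (chr1:204196542-204196741, minus strand) have 1 start in the table. VIPR1 has an upstream start (chr3:42489049-42489248) and a downstream start (chr3:42502393-42502592), and the data do not say which one was used. SLCO4A1-AS1 (chr20:62666672-62666871, minus strand) is shown because it moved with SLCO4A1, although the last 53 bases of its window lie in an annotated exon. Both strands were searched for a GC box, an E-box, an AP-1 site, a CRE core, a TATA box and a CCAAT box, and matches are in capitals.
VAMP3: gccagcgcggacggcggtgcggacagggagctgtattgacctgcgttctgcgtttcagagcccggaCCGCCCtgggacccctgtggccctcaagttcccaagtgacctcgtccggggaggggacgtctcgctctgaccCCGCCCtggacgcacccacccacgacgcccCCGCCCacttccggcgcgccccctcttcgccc
KISS1: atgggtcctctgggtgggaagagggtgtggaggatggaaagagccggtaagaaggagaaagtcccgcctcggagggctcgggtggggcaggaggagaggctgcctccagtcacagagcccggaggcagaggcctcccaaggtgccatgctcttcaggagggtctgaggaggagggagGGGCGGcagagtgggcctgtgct
VIPR1 upstream start: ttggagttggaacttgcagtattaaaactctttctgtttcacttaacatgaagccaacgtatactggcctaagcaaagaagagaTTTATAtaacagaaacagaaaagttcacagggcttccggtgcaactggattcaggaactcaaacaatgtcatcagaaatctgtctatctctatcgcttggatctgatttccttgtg
VIPR1 downstream start: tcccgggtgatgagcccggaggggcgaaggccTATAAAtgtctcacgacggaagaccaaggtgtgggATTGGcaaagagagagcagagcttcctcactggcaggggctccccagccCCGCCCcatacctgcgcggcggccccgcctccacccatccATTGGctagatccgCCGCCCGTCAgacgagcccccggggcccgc
SLCO4A1-AS1: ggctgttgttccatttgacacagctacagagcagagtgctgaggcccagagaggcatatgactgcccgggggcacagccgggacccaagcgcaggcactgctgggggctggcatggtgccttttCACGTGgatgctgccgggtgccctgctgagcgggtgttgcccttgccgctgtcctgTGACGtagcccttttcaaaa
The VAMP3 window holds 3 GC boxes (GGGCGG) and the KISS1 window 1, against 35% of 35116 RefSeq windows with at least 1. The upstream VIPR1 window has a GC content of 39% (median of all windows 57.5%) and holds a TATA box (TATAAA), found in 7.63% of windows. The downstream VIPR1 window (GC content 68%) holds 2 GC boxes, 2 CCAAT boxes, a TATA box and a CRE core, the last overlapping a GC box. CCAAT boxes, searched as those letters, are in 27.4% of windows. CRE cores (TGACG) are in 16%. The SLCO4A1-AS1 window holds an E-box (CACGTG), found in 4.51% of windows, and a CRE core. That CRE core lies among the exonic bases. The AP-1 site (TGAGTCA), in 3.23% of windows, was in none of these sequences, which says only that those letters are not there.

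Across B5, shM3 and the add-backs, NGFR, VIPR1 and SLCO4A1 were high in B5, lowest in shM3, and higher with METTL3-WT than with METTL3-CD. NGFR, a low-affinity receptor for neurotrophins, was at 73.6 FPKM in both B5 libraries and at 2.48 and 3.04 in shM3. It was at 12.5 and 12.3 in shM3_WT and at 4.01 and 4.35 in shM3_CD. No group overlapped another, and shM3 held 3.75% of the B5 level, shM3_CD 5.68% and shM3_WT 16.9%. VIPR1, a receptor for vasoactive intestinal peptide and PACAP that raises cyclic AMP, was at 52.5 and 42.1 FPKM in B5 and at 3.76 and 2.86 in shM3. It was at 15.9 and 14.9 in shM3_WT and at 8.77 and 8.54 in shM3_CD, again with no overlap. SLCO4A1, a transporter of organic anions such as thyroid hormone, was at 134 and 133 FPKM in the B5 libraries and at 11.0 and 10.1 in those of shM3. With METTL3-WT it was at 62.9 and 65.5, and with METTL3-CD at 24.9 and 25. METTL3-WT cells held 48.2% of the B5 level of SLCO4A1, the largest share among these 3 genes, and shM3 cells 7.91%. Among the 9355 genes at a mean of 5 FPKM or more, NGFR had the 2nd lowest log2 difference between shM3 and B5, SLCO4A1 the 5th, VIPR1 the 6th and CCN3 the 7th, and VAMP3 the 8th highest. These ranks restate the differences on which the genes were picked.

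**Figure D1:**
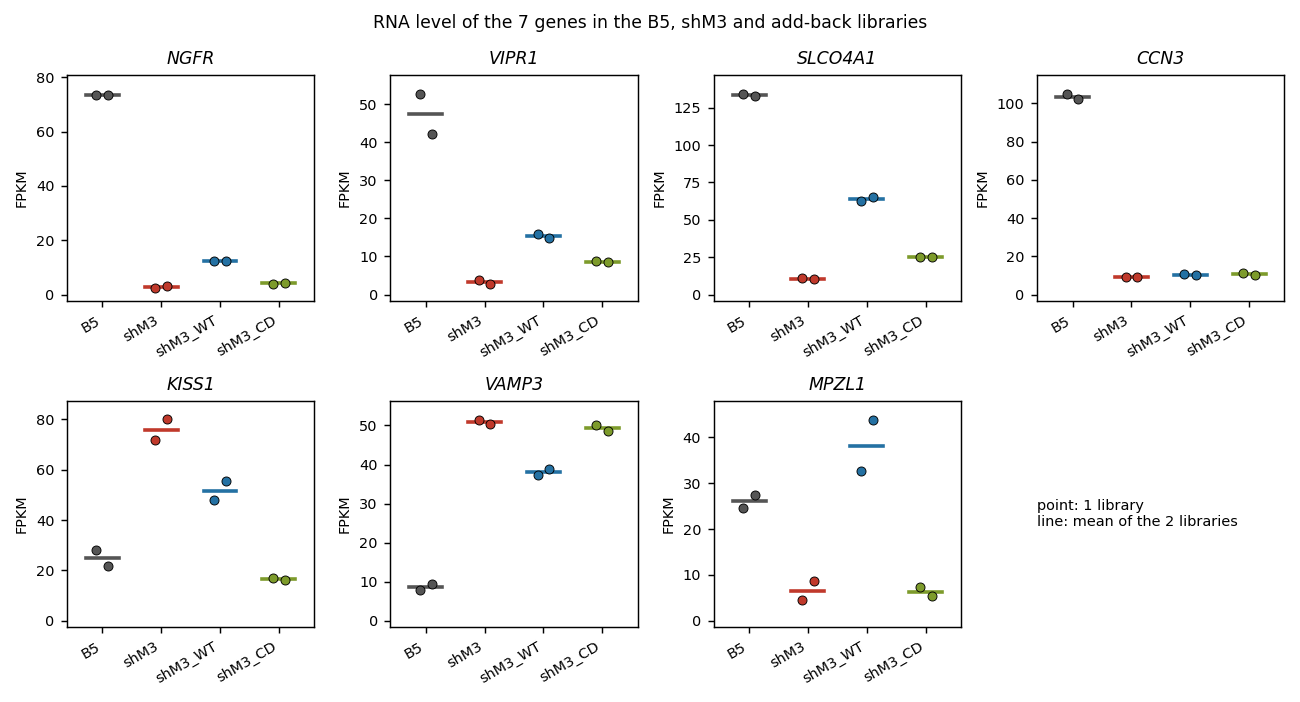
FPKM (linear axis) of the 7 genes in the B5, shM3, shM3_WT and shM3_CD libraries, with a point for each library and a line at the mean of the 2 libraries. NGFR, VIPR1, SLCO4A1 and CCN3 are highest in B5, VAMP3 is lowest there, KISS1 is highest in shM3, and MPZL1 is high in B5 and shM3_WT.

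CCN3 (chr8:119416306-119424353, plus strand) codes for a secreted matricellular protein that binds integrins. Its B5 libraries were at 105 and 102 FPKM and its shM3 libraries at 9.04 and 9.27. Here both add-backs were near shM3, at 10.7 and 10.2 FPKM in shM3_WT and 11.1 and 10.4 in shM3_CD, and these groups overlapped each other. Neither add-back held more than 10.4% of the B5 level. VAMP3, a SNARE of recycling endosomes that drives vesicle fusion, had the opposite order. Its B5 libraries were at 7.79 and 9.31 FPKM and its shM3 libraries at 51.4 and 50.5, a 5.96-fold difference of the means. It was at 37.3 and 38.7 in shM3_WT, still 4.44-fold over B5, and at 50.0 and 48.5 in shM3_CD. The order shM3, shM3_CD, shM3_WT, B5 had no overlap between neighbours.

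KISS1, which codes for the secreted precursor of the kisspeptins and was first described as a suppressor of metastasis, was higher in shM3 than in B5. The B5 libraries were at 28.1 and 21.7 FPKM and the shM3 libraries at 71.8 and 80.0. With METTL3-WT the gene was at 47.9 and 55.4, and with METTL3-CD at 17.1 and 16.3. The level was thus highest in shM3 and lowest in shM3_CD, with no overlap. MPZL1, an immunoglobulin-domain membrane glycoprotein that recruits the tyrosine phosphatase SHP2, was at 24.6 and 27.6 FPKM in B5 and at 4.54 and 8.64 in shM3. It was at 32.6 and 43.7 in shM3_WT and at 7.29 and 5.49 in shM3_CD. B5 and shM3_WT were high, and shM3 and shM3_CD were low and overlapped. MPZL1 had the 4th highest difference between shM3_WT and shM3_CD among 9167 genes at a mean of 5 FPKM or more. This rank restates the difference on which MPZL1 was picked.

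Of the tests whose libraries did not choose the gene, shM3_WT against shM3_CD was open to 5 genes, and 4 of them passed a Benjamini-Hochberg adjusted p of 0.05 in limma, beside 25.9% of all 14638 genes tested. NGFR was 2.97-fold higher with METTL3-WT (log2 difference 1.37 ± 0.10 SE, limma adjusted p = 0.00058) and SLCO4A1 2.57-fold higher (1.33 ± 0.07 SE, adjusted p = 0.000258). VIPR1 was 1.78-fold higher (0.77 ± 0.14 SE, limma adjusted p = 0.00949). VAMP3 was lower, 38 against 49.3 FPKM (-0.37 ± 0.09 SE, adjusted p = 0.0293). CCN3 did not pass (-0.04, 95% interval -0.22 to 0.15, limma adjusted p = 0.774). The VAMP3 call was lost with TMM factors (adjusted p = 0.0766), with equal medians (0.0826), with no filter (0.0507), and without any one of the 6 shM3, shM3_WT and shM3_CD libraries (0.0514 to 0.125). Without shM3_WT replicate 1 or shM3_CD replicate 2 VIPR1 was lost too (0.0543 and 0.052), leaving 2 genes. METTL3 itself was at 312 FPKM with METTL3-WT and 274 with METTL3-CD, a difference that did not pass (limma adjusted p = 0.185). Over all genes 1494 were higher and 2291 lower with METTL3-WT, and 2005 and 1525 with TMM factors.

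In shM3 against B5 the 1 gene open to test, MPZL1, passed beside 37.8% of all genes. MPZL1 fell from 26.1 ± 2.1 to 6.59 ± 2.90 FPKM (SD, n = 2 each), a log2 difference of -1.89 ± 0.27 SE (limma adjusted p = 0.00207). In shM3_WT against B5 the 1 gene open to test, KISS1, passed beside 30% of all genes, where 1727 were higher and 2659 lower, or 2465 and 2073 with TMM factors. KISS1 was 2.07-fold higher with METTL3-WT than in B5 (1.03 ± 0.14 SE, limma adjusted p = 0.00217). Both calls held with any 1 library left out.

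The partners of these genes were taken from lists that leave the 7 genes out. In shM3 against B5 17.9% of all genes rose and 19.9% fell, beside which the counts of each list stand. In the neurotrophin list, 16 of 23 genes could be tested in shM3 against B5, of which 2 rose and 4 fell, with a median log2 difference of -0.14 beside 0.00 over all genes. SORCS2, a sortilin-family receptor that pairs with NGFR, fell from 3.81 to 0.627 FPKM (limma adjusted p = 0.000302), and MAGED1, an NGFR-binding adaptor, fell from 58.1 to 27.1 (adjusted p = 0.000322). The ligand gene BDNF averaged 11 FPKM in B5. In the list of VIP, class B receptors and cyclic AMP signalling, 1 of 14 rose and 3 fell. PRKACB, a catalytic subunit of protein kinase A, fell from 5.68 to 1.41 FPKM (limma adjusted p = 0.000219) and was 2.3-fold higher with METTL3-WT than with METTL3-CD (adjusted p = 0.00252). VIPR2, the other VIP receptor, and ADCYAP1, which codes for PACAP, were listed at 0 in all 4 of these groups.

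PTPN11, which codes for the SHP2 phosphatase that MPZL1 recruits, was the only one of 11 tested genes in its list to pass in shM3 against B5. PTPN11 fell from 52.3 to 14.1 FPKM (log2 difference -1.82 ± 0.09 SE, limma adjusted p = 3.79e-05) and was higher with METTL3-WT (57.5 FPKM) than with METTL3-CD (29.2, adjusted p = 0.00115). In the SNARE list 9 of 35 rose and 5 fell in shM3 (median 0.19). YKT6, a SNARE, rose from 58.5 to 98.1 FPKM, while SEC22B, a SNARE of the early secretory route, fell from 15.8 to 6.81 (limma adjusted p = 0.00177 and 0.000358). Of the 3 tested relatives of CCN3, CCN1 rose from 371 to 669 FPKM and CCN2 from 129 to 156 (limma adjusted p = 0.000204 and 0.0155), the reverse of the CCN3 difference. In the kisspeptin list 2 of 8 rose and 2 fell, with MMP14, a protease that cleaves kisspeptin, down from 223 to 117 FPKM (adjusted p = 0.000136 in limma). The kisspeptin receptor gene KISS1R averaged at most 0.0463 FPKM. Of 2 SLCO genes tested, SLCO3A1 fell from 13.2 to 8.81 FPKM and SLCO1B3 rose from 7 to 10.5.

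SLCO4A1-AS1, whose exons overlap SLCO4A1, had the same order of levels. Its libraries were at 31.5 and 29.3 FPKM for B5 and at 2.08 and 2.99 for shM3. With METTL3-WT it was at 14.6 and 17.0, and with METTL3-CD at 9.97 and 8.18. Pearson's r between both genes on the log2(FPKM + 1) scale was 0.978 over the 8 libraries of that table and 0.988 over the 8 libraries of the DMSO table. Over the 6 CTRL table libraries it was 0.461. The libraries within a table share groups, and these values are a description.

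**Figure D2:**
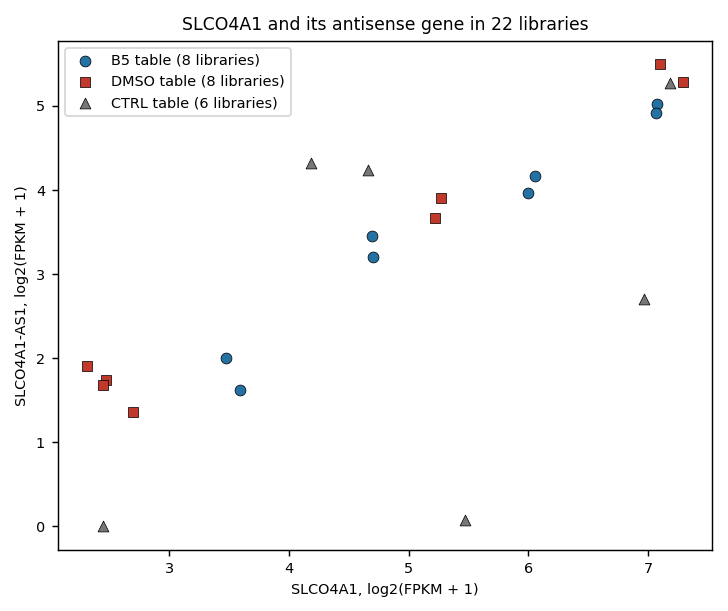
SLCO4A1 (x axis) against SLCO4A1-AS1 (y axis), both as log2(FPKM + 1), with a point for each of the 22 libraries and a marker for each table. The libraries of the B5 and DMSO tables rise together (r = 0.978 and 0.988), and the 6 of the CTRL table are scattered (r = 0.461).

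Of the 7 genes, SLCO4A1 fell with JQ1, Molib and I-BET151, NGFR and KISS1 were also lower with JQ1, and MPZL1 was higher with I-BET151. SLCO4A1 was at 155 and 136 FPKM in DMSO, 4.55 and 4.43 with JQ1, 5.47 and 3.98 with Molib, and 37.5 and 36.1 with I-BET151. JQ1 and Molib overlapped, and both lay under I-BET151. NGFR was at 4.68 and 4.72 FPKM in DMSO, 2.28 and 2.02 with JQ1, 3.08 and 2.56 with Molib, and 5.04 and 4.63 with I-BET151. KISS1 was at 7.12 and 6.07 FPKM in DMSO, 3.38 and 1.62 with JQ1, 4.38 and 3.51 with Molib, and 9.69 and 7.07 with I-BET151. For both genes the JQ1 and Molib libraries lay under DMSO, and I-BET151 overlapped DMSO.

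**Figure D3:**
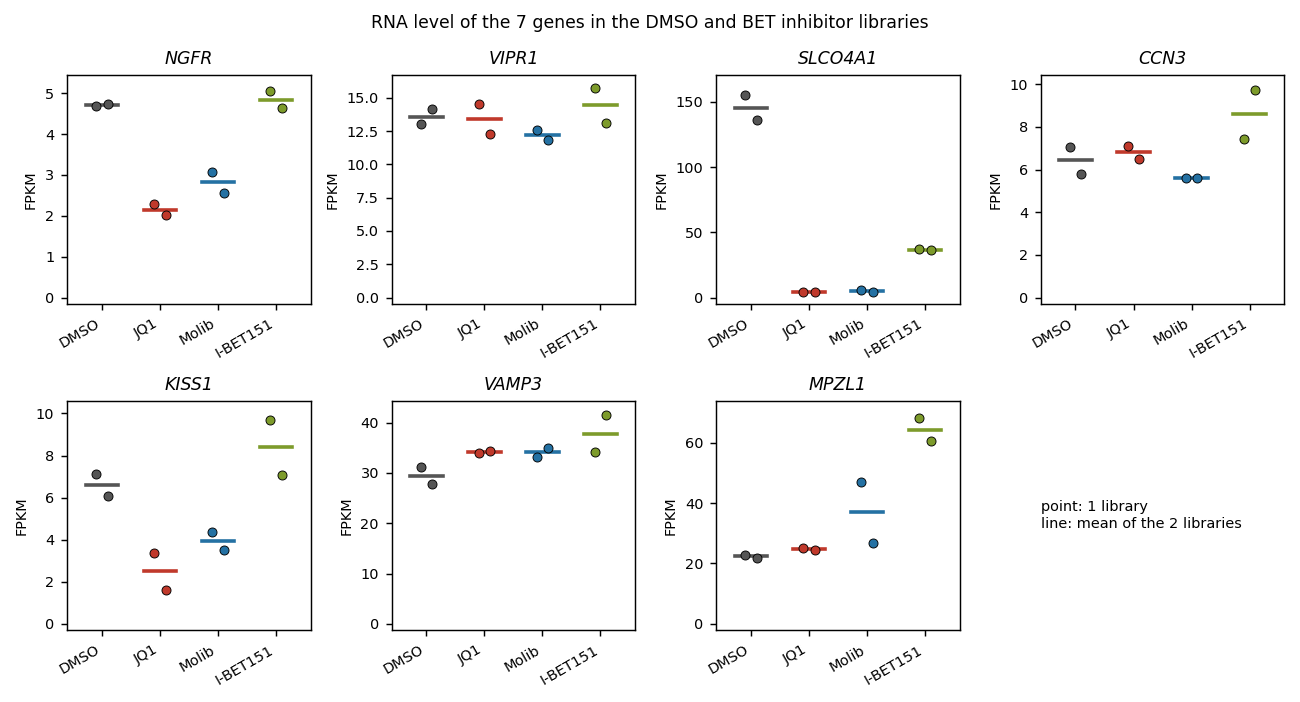
FPKM (linear axis) of the 7 genes in the DMSO, JQ1, Molib and I-BET151 libraries, with a point for each library and a line at the mean of the 2 libraries. SLCO4A1 falls from 146 FPKM in DMSO to 4.49 with JQ1, and MPZL1 reaches 64.3 with I-BET151.

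MPZL1 was at 22.9 and 21.9 FPKM in DMSO, 25 and 24.6 with JQ1, 47.1 and 26.9 with Molib, and 68.1 and 60.4 with I-BET151. The Molib libraries were far apart, and both I-BET151 libraries were above all others. VAMP3 was at 31.2 and 27.8 FPKM in DMSO and between 33.2 and 41.5 in the 6 inhibitor libraries, all above DMSO. VIPR1 ranged from 11.8 to 15.7 FPKM and CCN3 from 5.6 to 9.74 over the 8 libraries, and their JQ1 libraries overlapped DMSO.

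In JQ1 against DMSO 3 of the 7 genes passed, all lower, beside 35.1% of 14936 genes tested. SLCO4A1 fell 32.5-fold (log2 difference -4.74 ± 0.14 SE, limma adjusted p = 3.44e-06), NGFR fell 2.18-fold (-0.86 ± 0.13 SE, adjusted p = 0.00254) and KISS1 fell 2.64-fold (-1.16 ± 0.26 SE, adjusted p = 0.0125). The KISS1 call was lost without DMSO replicate 1 or JQ1 library b (limma adjusted p = 0.072 and 0.0543). In Molib against DMSO 2 passed, both lower, beside 35.3% of all genes. SLCO4A1 fell 30.9-fold (-4.69 ± 0.14 SE, limma adjusted p = 3.86e-06) and NGFR 1.67-fold (-0.58 ± 0.13 SE, adjusted p = 0.0115). NGFR was lost without DMSO replicate 1, DMSO replicate 2 or Molib replicate 2 (adjusted p = 0.0562, 0.0599 and 0.0744), leaving 1 gene without either DMSO library. KISS1, at 3.95 against 6.6 FPKM, did not pass (limma adjusted p = 0.102) but did with a replicate block (0.0265), with both groups alone (0.0267) or without either JQ1 library. MPZL1 (0.65, adjusted p = 0.0622) passed without Molib replicate 2 (1.04, adjusted p = 0.00466).

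In I-BET151 against DMSO 2 passed beside 28% of all genes, 1 in each direction. SLCO4A1 fell 3.96-fold (-1.95 ± 0.14 SE, limma adjusted p = 0.000245) and MPZL1 rose 2.87-fold (1.48 ± 0.23 SE, adjusted p = 0.00389). Without I-BET151 replicate 1 CCN3 and VAMP3 passed too (adjusted p = 0.0364 and 0.0193), making 4. METTL3 was at 26.3 FPKM in DMSO, 19.7 with JQ1, 20.6 with Molib and 16 with I-BET151, and passed only with I-BET151 (limma adjusted p = 0.062, 0.104 and 0.0113). VIPR1, which shM3 cells held at 7% of B5, was within 95% intervals of -0.33 to 0.29 (JQ1), -0.45 to 0.17 (Molib) and -0.23 to 0.39 (I-BET151) of DMSO on the log2 scale. The corresponding intervals for CCN3 were -0.28 to 0.43, -0.52 to 0.19 and 0.01 to 0.72. All 3 comparisons share the DMSO libraries.

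**Figure D4:**
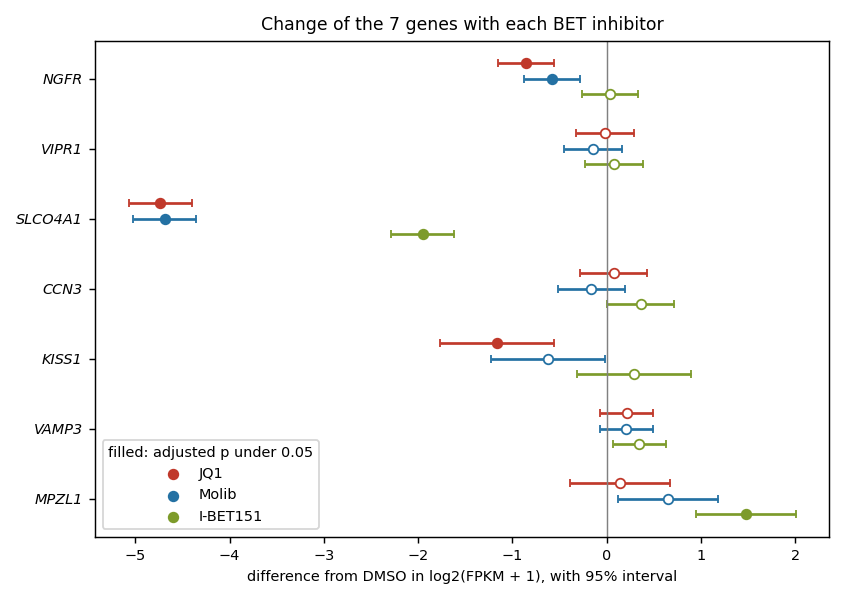
Difference from DMSO in log2(FPKM + 1) (x axis) for each of the 7 genes (y axis) with JQ1, Molib and I-BET151, with 95% intervals, filled where the limma adjusted p is under 0.05. SLCO4A1 lies at -4.74, -4.69 and -1.95, and MPZL1 with I-BET151 at 1.48.

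At the same dose and time, the inhibitors were compared in 3 pairs. In Molib against JQ1 0 of the 7 genes passed in limma, beside 0% of all genes (1227 genes and none of the 7 had an unadjusted p under 0.05). The 95% interval for SLCO4A1 was -0.29 to 0.38, and for KISS1 -0.06 to 1.15. In I-BET151 against JQ1 4 passed beside 44.6% of all genes, each higher with I-BET151. SLCO4A1 was 8.2-fold higher (2.78 ± 0.14 SE, limma adjusted p = 2.32e-05), NGFR 2.25-fold (adjusted p = 0.00139), KISS1 3.36-fold (adjusted p = 0.00349) and MPZL1 2.59-fold (adjusted p = 0.00287). In I-BET151 against Molib 5 passed beside 43.5%, again higher with I-BET151, namely SLCO4A1 (7.8-fold, limma adjusted p = 2.56e-05), NGFR (1.72-fold, 0.00695), MPZL1 (1.74-fold, 0.0215), KISS1 (2.12-fold, 0.0243) and CCN3 (1.53-fold, 0.0266). Without any 1 of the Molib or I-BET151 libraries 3 passed, and in that pair CCN3, KISS1 and MPZL1 each lost the call in at least 1 of those fits.

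Among the partner genes, CCN2 rose from 68.9 to 547 FPKM with JQ1 and to 705 with Molib (limma adjusted p = 1.85e-06 and 1.46e-06), while CCN3 did not pass. CCN2 reached 94 FPKM with I-BET151 (adjusted p = 0.00688), where CCN1 rose from 231 to 693 (limma adjusted p = 8.07e-05). In the cyclic AMP list 4 of 13 fell and 0 rose with JQ1, beside 20.6% and 14.5% of all genes. ADCY3 and ADCY7, which make cyclic AMP, fell from 20.9 to 8.04 and from 7.74 to 2.37 FPKM (limma adjusted p = 0.000174 and 0.00148). With I-BET151 0 of the 13 fell and 2 rose. In the kisspeptin list 4 of 10 fell and 1 rose with JQ1, among them MMP14 (177 to 71.2 FPKM) and FURIN, a protease that processes the kisspeptin precursor (21.2 to 10.4 FPKM; limma adjusted p = 0.000275 and 0.00222). With I-BET151 FURIN rose to 32.3 FPKM (adjusted p = 0.0204 in limma). In the SHP2 list SRC, a tyrosine kinase, fell from 12.5 to 3.79 FPKM with JQ1 (limma adjusted p = 0.000324). PTPN11 stayed between means of 49 and 54 FPKM in the 4 groups. In the SNARE list 7 of 34 rose and 5 fell with JQ1, and 10 rose and 2 fell with I-BET151, beside 13.9% and 14.1% of all genes. The neurotrophin list had 1 of 17 up and 3 down with JQ1 and 5 up and 2 down with I-BET151.

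In the third table the libraries differed in make-up. RN7SL1, an abundant noncoding RNA of the signal recognition particle, was at 37435 to 52947 FPKM in the CTRL and JQ1 libraries and at 23.8 and 57.6 in MW_JQ1. Of 5719 genes at 10 FPKM or more in both MW_JQ1 libraries, 191 to 644 were listed at 0 in each CTRL or JQ1 library, so a 0 there can be a failed estimate. METTL3 was at 31.2 and 1.18 FPKM in CTRL, 11.8 and 0 in JQ1, and 212 and 234 in MW_JQ1. Library make-up and group cannot be told apart in MW_JQ1 against JQ1.

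SLCO4A1 was at 144 and 124 FPKM in CTRL, 43.3 and 4.45 in JQ1, and 24.2 and 17.2 in MW_JQ1, so that both JQ1 groups lay under CTRL. NGFR was at 23.9 and 23.7 FPKM in CTRL, 2.70 and 9.23 in JQ1, and 17.9 and 19.4 in MW_JQ1. VIPR1 was at 0.602 and 5.59 FPKM in CTRL, 65.5 and 63.8 in JQ1, and 26.7 and 33.6 in MW_JQ1. The VIPR1 groups did not overlap, and CTRL was the low one. VAMP3 was at 13.6 and 9.47 FPKM in CTRL, 29.8 and 18.5 in JQ1, and 37.2 and 32.5 in MW_JQ1. CCN3 was at 9.39 and 15.0 FPKM in CTRL and 10.7 and 11.2 in MW_JQ1, and in JQ1 it was at 12.4 in 1 library and listed at 0 in the other. KISS1 was listed at 0 in 1 CTRL library and both JQ1 libraries, at 12.6 FPKM in the other CTRL library, and at 33.7 and 39.9 in MW_JQ1. MPZL1 ranged from 5.82 to 44.4 FPKM with all groups overlapping.

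**Figure D5:**
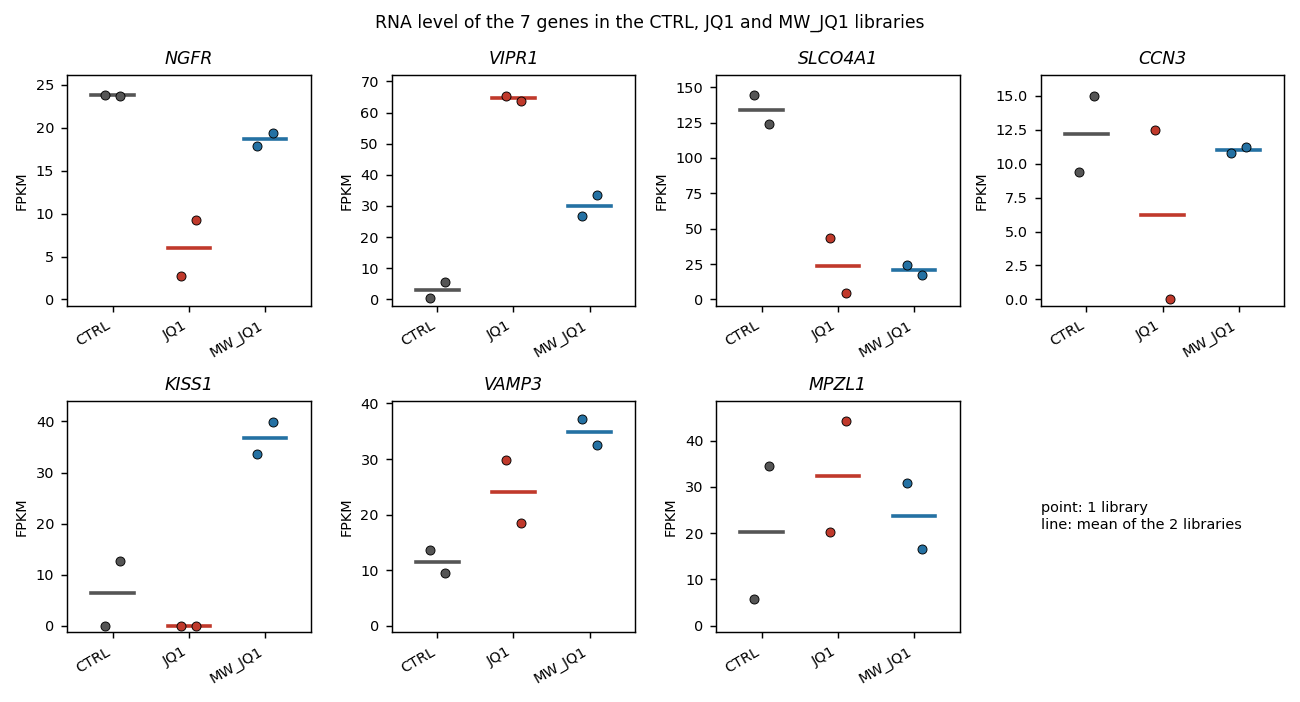
FPKM (linear axis) of the 7 genes in the CTRL, JQ1 and MW_JQ1 libraries, with a point for each library and a line at the mean of the 2 libraries. SLCO4A1 is highest in CTRL (144 and 124 FPKM), VIPR1 is lowest there, and KISS1 is listed at 0 in 3 libraries.

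In JQ1 against CTRL 0 of the 7 genes passed in limma, beside 0% of all 13261 genes (2048 genes had an unadjusted p under 0.05). NGFR (log2 difference -2.01, limma adjusted p = 0.213), SLCO4A1 (-3.11, adjusted p = 0.253) and VIPR1 (4.34, adjusted p = 0.0981) had unadjusted p-values of 0.0195, 0.0289 and 0.00216. Without CTRL replicate 2 the VIPR1 difference was 5.36. It then rests on CTRL replicate 1 alone, where VIPR1 was at 0.602 FPKM and 638 of the 5719 genes high in MW_JQ1 are listed at 0. In MW_JQ1 against JQ1 0 of the 7 passed in limma, with NGFR and KISS1 at unadjusted p-values of 0.0367 and 0.0116, beside 15.2% of all genes, whose median difference was 0.75 and 0.15 after the library medians were made equal. With equal medians SLCO4A1 and VAMP3 changed sign. The KISS1 test in this pair cannot serve as evidence of a difference. This gene met the filter only through its MW_JQ1 libraries, where it was high, and its JQ1 values are listed 0s that can be failed estimates. Its limma adjusted p of 0.0673, the lowest of the 7, and its passes with a pseudocount of 5 and with both groups alone rest on the same listed 0s. Some of the 7 passed with 1 library left out, but each such fit leaves 1 library in a group. Without either CTRL library KISS1 was among them, on the same listed 0s. The authors' deposited table, titled mw against JQ1, gives a test of its own whose columns name no groups or direction. Its signs for all 7 genes were those of JQ1 against CTRL, and all but that of VAMP3 were reversed in MW_JQ1 against JQ1. In that test 4 of the 7 genes had an adjusted p under 0.05, beside 20.1% of 14954 genes. Its log2 fold changes in the authors' deposited table were -1.96 for SLCO4A1 (adjusted p = 1.01e-19), 2.43 for VIPR1 (1.15e-07), 1.1 for VAMP3 (0.0072) and -0.40 for KISS1 (0.0408, with a standard error of 1.14). NGFR (-1.04, adjusted p = 0.17), CCN3 and MPZL1 did not pass in the authors' deposited table.

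The genes whose pattern was most like each of the 7 were ranked by Pearson's r over the 16 libraries of the B5 and DMSO tables, with log2 values centred within each table, among 8699 genes at a mean of 5 FPKM or more in both. NGFR fell under that level and was not ranked. SLCO4A1 was most like ADGRE5 (r = 0.989), an adhesion receptor, APOBEC3B (0.988), a cytidine deaminase, and SLCO4A1-AS1 (0.984). APOBEC3B averaged 17.1 FPKM in B5, 4.41 in shM3, 14 in shM3_WT and 6.9 in shM3_CD, and 17.5 in DMSO, 1.98 with JQ1, 2.26 with Molib and 9.74 with I-BET151. VIPR1 was most like CD74, the invariant chain of class II antigen presentation (r = 0.960), GUSB (0.959) and CHRDL1 (0.944), and by Spearman's rho none of these was in its top 3. CCN3 was most like DPYSL2 (0.967), ADAMTS15 (0.949) and PRAG1 (0.941), and VAMP3 like ALDH9A1 (0.977), TMEM183A (0.957) and F3, or tissue factor (0.957). The best values for MPZL1 were 0.921 (TMEM167B), 0.919 (NECTIN1) and 0.902 (MRPS7), with none kept by Spearman's rho, and for KISS1 0.868 (ATP6V0A2), 0.863 (CDC37) and 0.860 (EIF4ENIF1). By Spearman's rho SLCO4A1-AS1, PRAG1, TMEM183A and ATP6V0A2 left the top 3, and the other genes named for SLCO4A1, CCN3, VAMP3 and KISS1 stayed. SLCO4A1-AS1 shares exonic bases with SLCO4A1, so shared reads cannot be told apart from a shared pattern. These points share libraries and groups, and the ranking is a description.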

How the data were processed

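RNA of MDA-MB-231 cells was sequenced in 22 libraries of 11 groups. CASAVA 1.4, HISAT2 2.1.0 and Cufflinks 2.2.1 and the hg38 genome are named, per the submitters' processing notes, with no roles, and the labels' protocols describe 2 library preparations without assigning them. The authors deposited 3 tables of FPKM, a unit named for 1 table and inferred from the values of the others. The CTRL table also holds the authors' deposited log2 fold change, its standard error, a mean signal, a test score, p-values and adjusted p-values, per the file headers. The JQ1 columns of the DMSO table are numbered, but their names also fit the JQ1 samples of the CTRL table, so no replicate number was taken and they are called library a and library b here.

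Each table was analysed on the log2(FPKM + 1) scale with limma 3.58.1 in R 4.3.3 (eBayes with trend), in 1 fit over its groups. A gene entered when 2 or more of its libraries reached 1 FPKM, and p was adjusted over every gene that entered (Benjamini-Hochberg, 0.05). The script was tested on simulated data. Tables were not tested against each other. The members, lists and tests were chosen with earlier results of these data known. Named genes are the 7, METTL3, PIDD1, the 3 most similar genes of each, and up to 3 genes of each list with the smallest adjusted p; other partners, AS1 genes and RN7SL1 were named after their values were seen. Alternatives were pseudocounts of 0.1 and 5, no filter, a filter at 5 FPKM, TMM factors, equal medians, both groups alone, a replicate block and leaving out each library. FPKM holds no counts, so no counting interval is given. Lists besides the partner lists held markers of luminal, neural crest, haematopoietic, and fibroblast and endothelial cells; in the B5 and DMSO tables the 4 haematopoietic markers summed to at most 16.9 FPKM and the 5 fibroblast and endothelial markers to at most 1.62.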

Additional observations from a re-analysis of the deposited data

How the results depend on the processing

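The directions of the calls of the 7 genes held under every alternative run. Beside the lost and gained calls given in the report, CCN3 passed in I-BET151 against JQ1 without I-BET151 replicate 1 (limma adjusted p = 0.0429). In MW_JQ1 against JQ1 NGFR passed without JQ1 replicate 2 (limma adjusted p = 0.0272), and VIPR1 with both groups alone and without CTRL replicate 1 (0.0375 and 0.0479). The differences that changed sign, all on the log2 scale, passed neither as reported nor with the changed sign. With TMM factors and equal medians CCN3 in shM3_WT against shM3_CD was 0.066 and 0.070 and VIPR1 in JQ1 against DMSO 0.026 and 0.030. In MW_JQ1 against JQ1 equal medians gave -0.23 for SLCO4A1 and -0.19 for VAMP3. With 1 library left out CCN3 in shM3_WT against shM3_CD ran from -0.082 to 0.010. In JQ1 against DMSO VIPR1 ran from -0.13 to 0.10 and CCN3 from -0.044 to 0.20, and in I-BET151 against DMSO NGFR from -0.018 to 0.084 and VIPR1 from -0.042 to 0.20. In Molib against JQ1 SLCO4A1 ran from -0.14 to 0.24 and VAMP3 from -0.041 to 0.031, and in I-BET151 against JQ1 VIPR1 from -0.024 to 0.22 and VAMP3 from -0.0023 to 0.27. In JQ1 against CTRL CCN3 ran from -3.69 to 0.061 and MPZL1 from -0.19 to 2.19, and in MW_JQ1 against JQ1 SLCO4A1 from -1.05 to 1.97, CCN3 from -0.17 to 3.58 and MPZL1 from -0.94 to 0.15. The highest values of SLCO4A1 and CCN3 in that pair came without JQ1 replicate 1. The JQ1 side was then replicate 2 alone, where SLCO4A1 was at 4.45 FPKM and CCN3 is listed at 0, which can be a failed estimate. The cause of the changes of sign was not tested.

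With 1 library left out, the genes called ranged from 3654 to 5232 in shM3 against B5, 1781 to 4003 in shM3_WT against shM3_CD, 2642 to 3942 in shM3_WT against B5, 2854 to 6244 in JQ1, 3056 to 6197 in Molib and 1940 to 4333 in I-BET151 against DMSO, 0 to 3 in Molib against JQ1, 0 to 492 in JQ1 against CTRL and 48 to 3135 in MW_JQ1 against JQ1. Those fits hold fewer samples, and each leaves 1 library in a group. Any KISS1 call among them in MW_JQ1 against JQ1 rests on listed 0s. The lowest counts came from leaving out shM3 replicate 1, shM3_CD replicate 2, shM3_WT replicate 2, JQ1 library a, DMSO replicate 2 (Molib and I-BET151) and MW_JQ1 replicate 2 (48; replicate 1, 50), and 492 came without CTRL replicate 2. Of the 7 genes, 2 to 4 were called in shM3_WT against shM3_CD, 1 to 3 in Molib and 2 to 4 in I-BET151 against DMSO, 3 to 5 in I-BET151 against Molib, 0 to 1 in JQ1 against CTRL and 0 to 2 in MW_JQ1 against JQ1.

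A filter at 5 FPKM left 1 of the 7 called in Molib against DMSO and 742 genes in MW_JQ1 against JQ1. NGFR did not meet that filter in the DMSO table, so it was not tested there in any comparison. Both groups alone gave 2461 genes in I-BET151 against DMSO, 1 in Molib against JQ1 and 3135 in MW_JQ1 against JQ1, and 3 and 2 of the 7 in I-BET151 against Molib and MW_JQ1 against JQ1. No filter left 2 of the 7 in I-BET151 against Molib. In JQ1 against CTRL a pseudocount of 0.1 gave 6 genes, and in MW_JQ1 against JQ1 a pseudocount of 5 called 1 of the 7. That gene was KISS1, also called there with both groups alone, and its test in this pair cannot serve as evidence. Genes above 0 in all 6 CTRL table libraries, chosen after seeing the data, gave 226 genes in MW_JQ1 against JQ1. The replicate block called 2724 genes in I-BET151 against DMSO. Same-numbered libraries did not deviate together (r of their differences -0.12 to 0.04 over all tables). These values show no common shift by replicate number, and they cannot show whether such libraries were handled as pairs. The JQ1 libraries of the DMSO table, to which no replicate number was assigned, were left out of the block. The block also called KISS1 in Molib against DMSO and lost CCN3 in I-BET151 against Molib (limma adjusted p = 0.0685).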

Other observations

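The control groups of the 3 tables held different levels of most of the 7 genes. NGFR averaged 73.6 FPKM in B5, 4.7 in DMSO and 23.8 in CTRL, and CCN3 averaged 103, 6.42 and 12.2. VIPR1 averaged 47.3, 13.6 and 3.1 FPKM, and VAMP3 8.55, 29.5 and 11.5. KISS1 averaged 24.9 FPKM in B5 and 6.6 in DMSO. SLCO4A1 was at 133, 146 and 134 FPKM and MPZL1 at 26.1, 22.4 and 20.2. The DMSO levels of NGFR and CCN3 lay nearer to those of shM3 (2.76 and 9.16 FPKM) than to those of B5. The tables were normalized separately and differ in time in culture and handling, so these levels were not tested against each other.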
